A study of Mus musculus with 39 samples.

Results

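Hepatocytes, the parenchymal cells of the liver, were compared late and early in a fast. The comparison set 3 libraries from C57BL/6 mice kept without food for 12 h (fasted 12 h) against 2 libraries from C57BL/6 mice kept without food for 4 h (fasted 4 h). These 5 of the 39 libraries in the series were chosen by their labels alone, and all genes of their tables were compared. The other 5 hepatocyte libraries, 2 from mice fed for 12 h and 3 from mice fed for 4 h, give the levels of each time with food. All mice were 8 to 12 weeks old and drank freely. Fed mice ate freely, and fasted mice had their food taken out and their bedding renewed at the start of the period. Hepatocytes were isolated from the liver by perfusion and centrifugation, and libraries were made from total RNA with a low-input kit. The labels give neither the clock time nor the day of isolation, so time without food, time of day and day of isolation cannot be told apart between 12 h and 4 h. Separate animals for the libraries of a group are not mentioned either. The p-values rest on the spread between libraries within groups, pooled over all 10 hepatocyte libraries, and that spread may be technical.

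When food is withdrawn, the liver turns from storing fuel to supplying it. Glycogen is used first, and fatty acids released by adipose tissue are then oxidized in mitochondria, peroxisomes and the endoplasmic reticulum (ER) under the nuclear receptor PPARA and exported as ketone bodies, while glucose is made from lactate, glycerol and amino acids. Fatty acid and cholesterol synthesis, which insulin and the SREBP transcription factors drive after a meal, are known to recede.

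Expression is given in TPM, the relative abundance of transcripts, which scales for transcript length and library total. The 5 fasted tables listed the same 8966 genes with usable symbols, and each library summed to 984189 to 989706 TPM. Albumin (Alb) led each fasted 12 h library, with 40533, 40742 and 42359 TPM, against 20308 and 20909 TPM in the fasted 4 h libraries, and 11 hepatocyte markers summed to 99508 to 102954 TPM in fasted 12 h and 96814 to 103016 TPM in fasted 4 h libraries. Alb did not lead the fasted 4 h libraries. Hepatocyte markers were thus abundant in both groups, but 6 of the 11 rose and 5 fell, and their sum does not measure purity. Depth is unknown, since the tables hold no read counts. Libraries of 12 h were more alike than those of 4 h: log2(TPM + 1) values correlated across genes at 0.964 to 0.977 among the fasted 12 h libraries and at 0.917 between the fasted 4 h libraries. The fasted 4 h libraries correlated at 0.91 to 0.931 with the fed 4 h libraries, a range that includes their correlation with each other. They also had more genes under 1 TPM, 556 and 695, against 41 to 58 in fasted 12 h libraries.

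Markers of other liver cells moved with time as well. The summed level of 14 Kupffer cell and macrophage markers was 827 to 839 TPM in fasted 12 h and 3139 to 3149 TPM in fasted 4 h libraries, and it was 111 to 117 TPM in fed 12 h and 2001 to 2040 TPM in fed 4 h libraries. In bulk libraries, fewer cells of a type and less RNA per cell cannot be told apart. For the hepatocyte genes described below, the part of these other cells in the result was not tested.

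Log2 fold changes (log2FC) are differences of group means of log2(TPM + 1), given with their standard error (SE). A difference was called at an adjusted p under 0.05 in limma, fitted to log2(TPM + 1) of all 10 hepatocyte libraries with Benjamini-Hochberg adjustment over 8966 genes. Between fasted 12 h and fasted 4 h libraries, 6249 genes were called (69.7%), of which 4187 rose (46.7%) and 2062 fell (23.0%). The median log2 fold change over all genes was 0.45. With each library centred on its median, 3106 genes rose (34.6%) and 3153 fell (35.2%), and after quantile normalization 2873 rose and 3018 fell, so the excess of genes that rose depended on how libraries were scaled. Values below are log2 fold changes as fitted, and the median of 0.45 is to be subtracted to read them relative to the median gene. Low genes were mostly higher and high genes mostly lower at 12 h. The median difference was 1.03 for 2643 genes with a mean of 3 to 10 TPM and -0.24 for 1149 genes over 100 TPM. It also grew with transcript length, with a median of 0.12 in the shortest 20% and 1.08 in the longest 20% of genes. In the fed libraries the corresponding medians by length were -0.15 and 0.59. All 3 fasted 12 h libraries lay above both fasted 4 h libraries for 4455 genes (49.7%) and below both for 2306 genes (25.7%), 75.4% in either direction. Each list's counts are read against these shares.

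**Figure D1:**
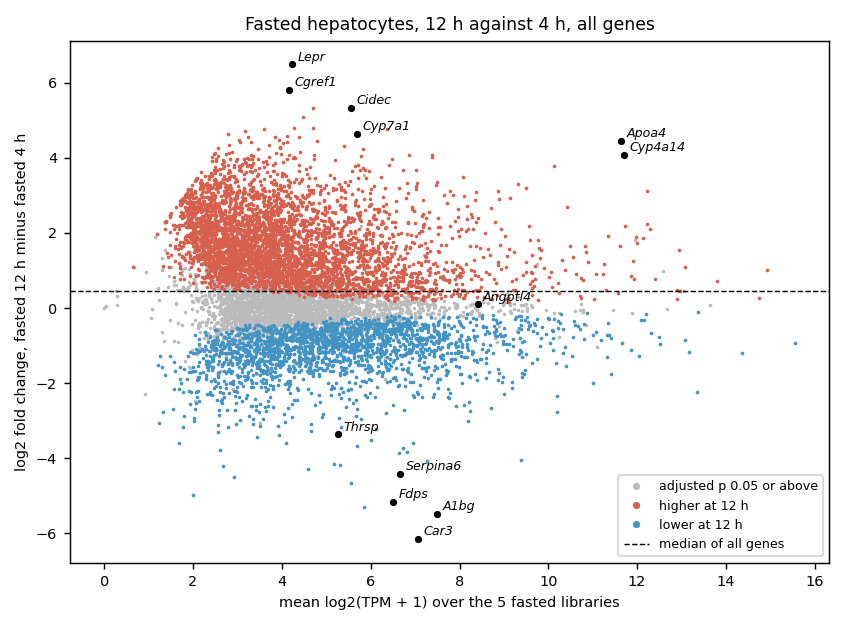
Log2 fold change between fasted 12 h and fasted 4 h hepatocytes (vertical axis, log2(TPM + 1) scale) against the mean log2(TPM + 1) of the 5 fasted libraries (horizontal axis), 1 point per gene. Red points were higher and blue points lower at 12 h at an adjusted p under 0.05, the dashed line is the median of all genes at 0.45, and points at low levels lie mostly above it.

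The strongest rises by the naming rule (called, groups apart, at least 10 TPM in the higher group) were in Lepr, Cgref1, Clk1 and Cidec. The Lepr gene lies at chr4:101717137-101815352 (RefSeq, GRCm38.p6, as for other positions). Lepr, the receptor for the adipose hormone leptin, was at 96.2, 118 and 126 TPM in fasted 12 h, against 0.585 and 0 TPM in fasted 4 h libraries. Fed libraries were low at both times, with 2.04 and 1.56 TPM in fed 12 h and 0.444, 0.262 and 0.308 TPM in fed 4 h libraries. The fasted 12 h libraries stood far above the other 7 libraries, and the groups did not overlap (log2FC 6.49, SE 0.24, adjusted p = 4e-08). The rise with time in fasted libraries exceeded that in fed libraries (interaction, the fasted difference minus the fed difference, 5.43, adjusted p = 6.7e-06). Leprot, a gene on the same chromosome (chr4:101647783-101659364), was at 37.6, 36.6 and 38.6 TPM in fasted 12 h, against 29 and 25.6 TPM in fasted 4 h libraries. This small difference (log2FC 0.45, adjusted p = 0.013) was lost when libraries were centred (0.001, adjusted p = 0.99), after quantile normalization (0.24, adjusted p = 0.12), with array weights (0.44, adjusted p = 0.12), with a length trend removed (0.31, adjusted p = 0.061) and without fasted 4 h library 2 (0.36, adjusted p = 0.057). Cgref1, which encodes an EF-hand protein, was at 85.9, 87.1 and 92.5 TPM in fasted 12 h, against 0 and 1.55 TPM in fasted 4 h libraries (log2FC 5.81, SE 0.41, adjusted p = 1.9e-06). No fed library exceeded 1.94 TPM.

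Genes of mitochondrial fatty acid oxidation and other PPARA targets were mostly higher at 12 h, in fasted and in fed libraries. Of 36 such genes, 27 rose, 7 fell and 2 did not pass, against 46.7% of all genes higher and 23.0% lower, and the list's median exceeded the general one by 0.74. In fed libraries 24 rose and 5 fell, and the list's median exceeded the general one by 0.71. The interaction was called higher for 16 and lower for 4 of the genes, against 23.2% and 7.43% of all genes. With centred libraries 21 rose and 8 fell. Cpt1a, the carnitine palmitoyltransferase that admits fatty acids to mitochondria, was at 405, 393 and 411 TPM in fasted 12 h, against 77 and 101 TPM in fasted 4 h libraries (log2FC 2.18, SE 0.11, adjusted p = 2.2e-07). Its fed levels were 118 and 121 TPM in fed 12 h and 54.1, 59.7 and 56.7 TPM in fed 4 h libraries, so both feeding states were higher at 12 h, the fasted one more (interaction 1.12, adjusted p = 0.00069). The fatty acid transporter Cd36 was at 238, 236 and 248 TPM in fasted 12 h, against 19.4 and 32.8 TPM in fasted 4 h libraries (log2FC 3.20, adjusted p = 6.6e-07). Acadm, the medium-chain acyl-CoA dehydrogenase of the oxidation cycle, averaged 723 ± 11.6 TPM in fasted 12 h and 98 ± 2.32 TPM in fasted 4 h libraries (SD, n = 3 and 2 libraries, as in all such pairs; log2FC 2.87, adjusted p = 3e-09). Vnn1, a pantetheinase and PPARA target, averaged 257 ± 11.2 TPM in fasted 12 h and 42.6 ± 8.85 TPM in fasted 4 h libraries (log2FC 2.58, adjusted p = 2.1e-07).

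Ppara itself was at 46.6, 40.6 and 44.4 TPM in fasted 12 h, against 35 and 27.1 TPM in fasted 4 h libraries, and the call (log2FC 0.49, SE 0.14, adjusted p = 0.0099) was lost with centred libraries (0.04, adjusted p = 0.79), after quantile normalization (0.33, adjusted p = 0.059), with array weights (0.48, adjusted p = 0.092) and without fasted 4 h library 2 (0.31, adjusted p = 0.063). Angptl4, a secreted inhibitor of lipoprotein lipase and a PPARA target, was at 353, 333 and 358 TPM in fasted 12 h, against 360.1 and 292 TPM in fasted 4 h libraries. The fasted groups overlapped and the difference did not pass (log2FC 0.10, SE 0.15, adjusted p = 0.56). The sign turned with centred libraries (-0.35, adjusted p = 0.077) and without fasted 4 h library 2 (-0.05, adjusted p = 0.8). In fed libraries Angptl4 was lower at both times, with 88 and 85.6 TPM in fed 12 h and 33.8, 23.8 and 24.9 TPM in fed 4 h libraries, and the difference between times was smaller in fasted than in fed libraries (interaction -1.54, adjusted p = 0.00065).

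Of 21 genes of peroxisomal and microsomal fatty acid oxidation, 16 rose and 2 fell, with a median 1.19 over the general one, and 13 rose and 4 fell with centred libraries. In fed libraries 12 rose and 5 fell, and the interaction was called higher for 16 and lower for 0. Cyp4a14 (chr4:115486200-115496158), which hydroxylates the end carbon of fatty acids, was at 10453, 10258 and 10524 TPM in fasted 12 h, against 565 and 667 TPM in fasted 4 h libraries (log2FC 4.08, SE 0.07, adjusted p = 5.1e-10). Fed libraries held 518 and 505 TPM in fed 12 h and 180.3, 196 and 196 TPM in fed 4 h libraries, so the fasted 4 h libraries were near the fed 12 h ones and the fasted 12 h libraries stood alone. Its neighbour and close relative Cyp4a10 averaged 11342 ± 182 TPM in fasted 12 h and 1311 ± 60.1 TPM in fasted 4 h libraries (log2FC 3.11, adjusted p = 3.6e-10), and reads of such near-identical genes depend on how the authors' counting divided them. Ehhadh, the bifunctional enzyme of peroxisomal oxidation, averaged 1587 ± 18.5 TPM in fasted 12 h and 159.8 ± 24.5 TPM in fasted 4 h libraries (log2FC 3.31, adjusted p = 7.1e-09). Abcd3, a peroxisomal importer of fatty acyl-CoA, averaged 513 ± 15.8 TPM in fasted 12 h and 82.2 ± 5.94 TPM in fasted 4 h libraries (log2FC 2.63, adjusted p = 3e-08). The acyl-CoA thioesterase Acot1 rose less (log2 fold change 0.94, adjusted p = 0.00013) and was at 150.4 and 200.3 TPM in fasted 4 h libraries, above every fed library.

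Ketone body genes came next. Acat1, the thiolase at the start of the pathway, averaged 214 ± 15.8 TPM in fasted 12 h and 67.7 ± 9.55 TPM in fasted 4 h libraries (log2FC 1.65, adjusted p = 6.8e-07), but it was higher still in fed 12 h libraries, at 335 and 335 TPM. Slc16a1, a carrier of lactate and ketone bodies, averaged 85.3 ± 4.65 TPM in fasted 12 h and 15.9 ± 2.47 TPM in fasted 4 h libraries (log2FC 2.36, adjusted p = 2.7e-07). Slc16a6, which exports ketone bodies from the liver in zebrafish, was at 16.5, 9.41 and 11.2 TPM in fasted 12 h, against 1.05 and 0 TPM in fasted 4 h libraries (log2FC 3.19, adjusted p = 6.4e-05). Of all 6 ketone body genes 4 rose and 2 fell, and the falls were not called with array weights, quantile normalization or a length trend removed. Fgf21, a hormone that the fasting liver secretes under PPARA, was at 59.5, 60 and 55 TPM in fasted 12 h, against 12.2 and 1.98 TPM in fasted 4 h libraries (log2FC 3.24, SE 0.52, adjusted p = 0.00042). The fasted 4 h libraries lay far apart in this gene, and the comparison with the fed difference did not pass (interaction 0.98, adjusted p = 0.35). Without fasted 4 h library 1 it passed (2.06, adjusted p = 0.0037), and without library 2 it was -0.09 (adjusted p = 0.87).

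Lipid droplet genes differed between the fasted groups as well. Cidec (chr6:113424634-113435760), a droplet protein that fuses small fat droplets into large ones, was at 211, 209 and 195 TPM in fasted 12 h, against 4.36 and 3.82 TPM in fasted 4 h libraries (log2FC 5.34, SE 0.17, adjusted p = 2.1e-08). It was under 1 TPM in all fed libraries, with 0.513 and 0.526 TPM in fed 12 h and 0.234, 0.056 and 0.275 TPM in fed 4 h libraries, and the interaction was 4.98, adjusted p = 1.5e-06. Hsd17b13, a droplet-bound enzyme of hepatocytes, was at 1704, 1773 and 1775 TPM in fasted 12 h, against 181 and 199 TPM in fasted 4 h libraries (log2FC 3.20, adjusted p = 7e-10). The droplet coat gene Plin2 was at 2111, 2147 and 2139 TPM in fasted 12 h, against 1173 and 1291 TPM in fasted 4 h libraries (log2FC 0.79, adjusted p = 1.5e-06). Its fasted 4 h level was above every fed library, the highest of which held 712 TPM. Plin4, another coat gene, was at 7.67, 6.26 and 8.28 TPM in fasted 12 h, against 1.08 and 0 TPM in fasted 4 h libraries (log2FC 2.54, adjusted p = 4.6e-05). Lpin2, a phosphatidate phosphatase of triglyceride synthesis, averaged 128 ± 9.08 TPM in fasted 12 h and 16.7 ± 6.6 TPM in fasted 4 h libraries (log2FC 2.91, adjusted p = 3e-06). Over the 19 genes of lipid droplets and triglyceride storage, 11 rose and 3 fell in fasted libraries and 5 rose and 6 fell in fed libraries. The interaction was called higher for 12 and lower for 1 of them, against 23.2% and 7.43% of all genes. Apoa4 (chr9:46240844-46243458), an apolipoprotein of triglyceride-rich particles, was at 10837, 10977 and 11190.0 TPM in fasted 12 h, against 451 and 561 TPM in fasted 4 h libraries (log2FC 4.45, SE 0.08, adjusted p = 5.2e-10). Fed libraries held 249 and 248 TPM in fed 12 h and 329, 334 and 341 TPM in fed 4 h libraries, so the fasted 4 h libraries were above both fed groups but far below fasted 12 h. Apob, the structural protein of very low density lipoprotein, averaged 443 ± 27.4 TPM in fasted 12 h and 44.6 ± 2.83 TPM in fasted 4 h libraries (log2FC 3.28, adjusted p = 1.8e-08). It also rose with time in fed libraries (log2FC 2.49, adjusted p = 2.1e-07). Of 14 apolipoprotein genes 4 rose, 2 fell and 8 did not pass, against 46.7% of all genes higher and 23.0% lower. With centred libraries 3 rose and 6 fell. The 14 genes summed to 88721 to 95617 TPM in fasted 12 h and 114353 to 137978 TPM in fasted 4 h libraries.

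**Figure D2:**
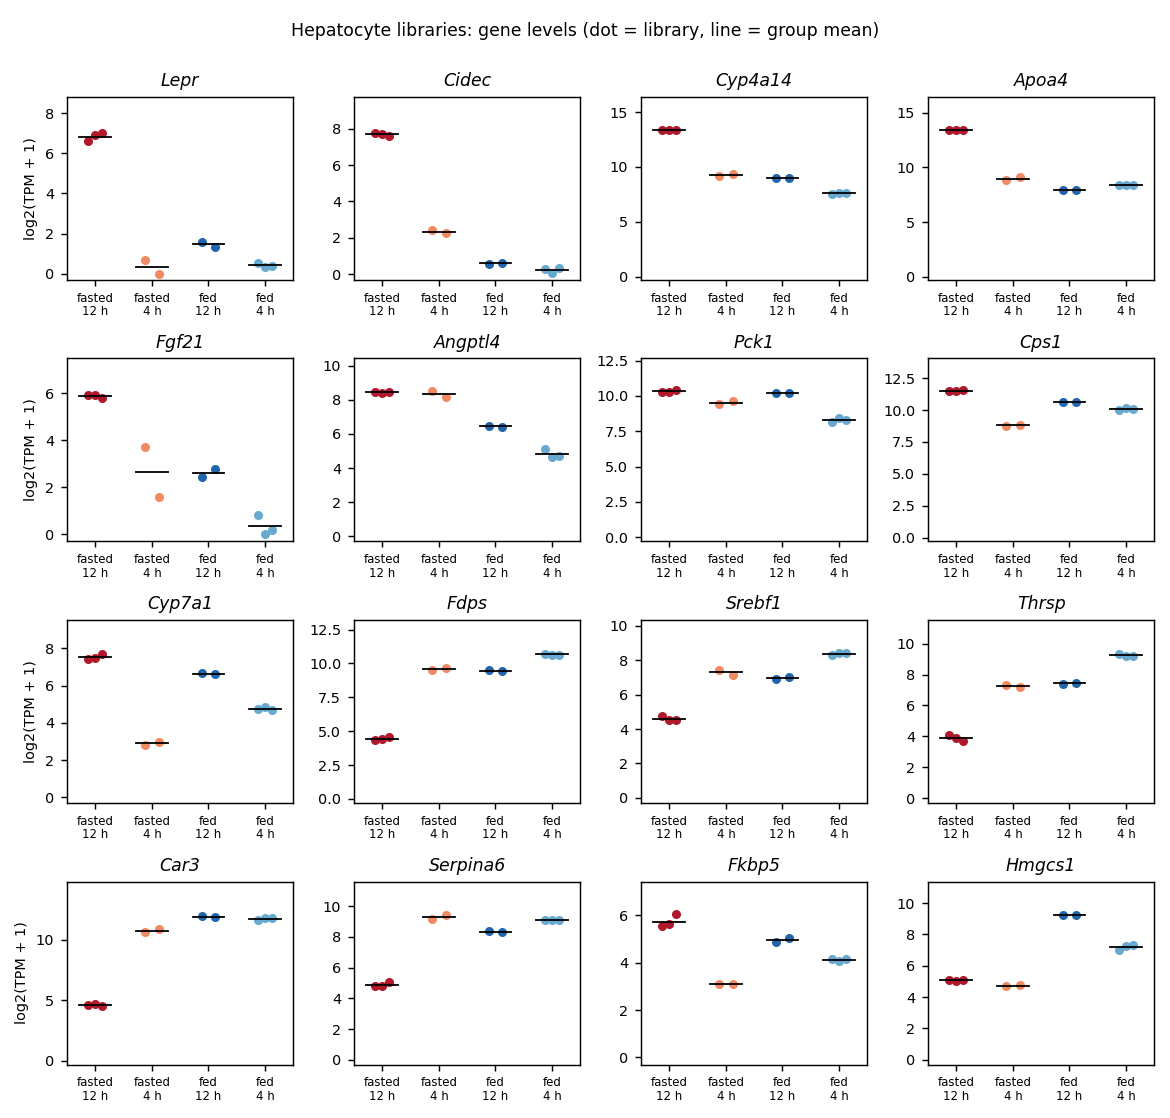
Level of 16 genes on the log2(TPM + 1) scale (vertical axis) in each hepatocyte library (dots) by group, with lines at group means, from fasted 12 h on the left to fed 4 h on the right. Lepr, Cidec, Cyp4a14 and Apoa4 were highest and Fdps, Srebf1, Thrsp, Car3 and Serpina6 lowest in the 3 fasted 12 h libraries, while Angptl4 overlapped between the fasted groups.

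Of 19 gluconeogenesis genes 7 rose, 5 fell and 7 did not pass, shares not far from the 46.7% and 23.0% of all genes. Pck1, the phosphoenolpyruvate carboxykinase of gluconeogenesis, was at 1260.4, 1273 and 1383 TPM in fasted 12 h, against 676 and 799.5 TPM in fasted 4 h libraries (log2FC 0.83, SE 0.09, adjusted p = 3.1e-05). Fed libraries held 1194 and 1194 TPM in fed 12 h and 291, 347 and 321 TPM in fed 4 h libraries, and the rise with time was smaller in fasted than in fed libraries (interaction -1.07, adjusted p = 0.00029). G6pc, the glucose-6-phosphatase that releases glucose, was at 445, 440.1 and 482 TPM in fasted 12 h, against 184 and 189 TPM in fasted 4 h libraries (log2FC 1.28, adjusted p = 1.6e-07). The fed 12 h libraries held as much, at 451 and 447 TPM. Its ER partner Slc37a4, the glucose-6-phosphate transporter, averaged 1016 ± 28.9 TPM in fasted 12 h and 433 ± 61.2 TPM in fasted 4 h libraries (log2FC 1.23, adjusted p = 1.3e-06), whereas it was lower at 12 h in fed libraries (log2FC -0.40, adjusted p = 0.0023). Gpt2, a mitochondrial alanine transaminase that feeds gluconeogenesis, averaged 440.4 ± 9.7 TPM in fasted 12 h and 105 ± 6.86 TPM in fasted 4 h libraries (log2FC 2.06, adjusted p = 1.5e-08). The direction of the gluconeogenesis list depended on scaling: with centred libraries 6 rose and 11 fell, while after quantile normalization 10 rose and 4 fell.

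Of 18 glycolysis and glycogen genes 9 rose and 7 fell, and 6 rose and 8 fell with centred libraries. Ppp1r3g, which targets a phosphatase to glycogen, was at 0.662, 1.16 and 0.824 TPM in fasted 12 h, against 11 and 9.34 TPM in fasted 4 h libraries (log2FC -2.57, adjusted p = 5.4e-06). The fasted 4 h libraries stood alone, since no fed library exceeded 1.59 TPM. Gys2, the liver glycogen synthase, averaged 139 ± 8.71 TPM in fasted 12 h and 28.6 ± 2.82 TPM in fasted 4 h libraries (log2FC 2.24, adjusted p = 2.2e-07). Khk, which phosphorylates fructose, averaged 179 ± 11.1 TPM in fasted 12 h and 636 ± 14 TPM in fasted 4 h libraries (log2FC -1.82, adjusted p = 2.3e-08). Igfbp1, a binding protein of insulin-like growth factor that insulin represses, was at 286, 277 and 295 TPM in fasted 12 h, against 23.8 and 31.4 TPM in fasted 4 h libraries (log2FC 3.34, SE 0.12, adjusted p = 3.7e-08). It also rose with time in fed libraries (log2FC 2.71, adjusted p = 3.7e-07). Irs2, an insulin receptor substrate, was at 23.6, 22.9 and 22.3 TPM in fasted 12 h, against 15.5 and 15.4 TPM in fasted 4 h libraries (log2FC 0.54, adjusted p = 0.0064), and this small difference was lost with centred libraries (0.09, adjusted p = 0.55), after quantile normalization (0.14, adjusted p = 0.37) and with array weights (0.54, adjusted p = 0.086), and turned to -0.42 (adjusted p = 0.005) once a length trend was removed. Pdk4, which switches off pyruvate oxidation, averaged 16.7 ± 2.58 TPM in fasted 12 h and 3.73 ± 0.116 TPM in fasted 4 h libraries (log2FC 1.89, adjusted p = 9.6e-05). Of 18 insulin signalling and FOXO1 target genes 11 rose and 4 fell, but 5 rose and 5 fell with centred libraries.

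More lipogenic genes were lower than higher at 12 h, in fasted and in fed libraries. Srebf1, which encodes the transcription factor of fatty acid synthesis, was at 26.3, 22.4 and 21.8 TPM in fasted 12 h, against 174 and 142 TPM in fasted 4 h libraries (log2FC -2.70, SE 0.12, adjusted p = 9.8e-08). Fed libraries held 118 and 132 TPM in fed 12 h and 315, 343 and 337 TPM in fed 4 h libraries, so it was lower at 12 h in both feeding states and the fasted difference was larger (interaction -1.29, adjusted p = 0.00045). Thrsp, a lipogenic regulator, averaged 14.2 ± 2.07 TPM in fasted 12 h and 154 ± 10.3 TPM in fasted 4 h libraries (log2FC -3.36, adjusted p = 2.3e-08). Acss2, which makes cytosolic acetyl-CoA, averaged 49.5 ± 5.13 TPM in fasted 12 h and 332 ± 32.3 TPM in fasted 4 h libraries (log2FC -2.72, adjusted p = 3.2e-08). Fasn, the fatty acid synthase, was at 34.1, 54 and 55.5 TPM in fasted 12 h, against 89.3 and 118 TPM in fasted 4 h libraries (log2FC -1.12, adjusted p = 0.0012). Its difference between the times in fed libraries was -1.13. Scd1, the stearoyl-CoA desaturase, was at 490.4, 539 and 555 TPM in fasted 12 h, against 1422 and 1489.7 TPM in fasted 4 h libraries (log2FC -1.46, adjusted p = 2e-07). Fed libraries held more at both times, with 3602 and 3356 TPM in fed 12 h and 2879, 3281 and 2990.2 TPM in fed 4 h libraries. Elovl6, a fatty acid elongase, went the other way and averaged 31.1 ± 1.07 TPM in fasted 12 h and 3.54 ± 0.693 TPM in fasted 4 h libraries (log2FC 2.83, adjusted p = 8.6e-07). In the lipogenesis list 12 of 20 genes fell and 7 rose, with a median -1.27 relative to all genes, and 6 rose and 13 fell with centred libraries. In fed libraries 12 fell and 6 rose, with a median -0.68 relative to all genes. The interaction was called higher for 8 and lower for 7.

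Cholesterol synthesis had the lowest median of the metabolic lists: of 22 genes 17 fell, 3 rose and 2 did not pass, with a median -2.10 relative to all genes. The count that fell was 16 to 18 with centred libraries, quantile normalization, array weights, a length trend removed or either fasted 4 h library left out. In fed libraries 10 fell and 8 rose, and the interaction was called lower for 18 genes and higher for none, against 7.43% lower over all genes. Fdps (chr3:89093588-89101967), the farnesyl diphosphate synthase, was at 19.5, 20 and 22.8 TPM in fasted 12 h, against 739.5 and 822 TPM in fasted 4 h libraries (log2FC -5.17, SE 0.08, adjusted p = 3.6e-10). The fasted 4 h libraries lay within the fed range, with 723 and 698 TPM in fed 12 h and 1646, 1610.3 and 1589 TPM in fed 4 h libraries. Mvk, the mevalonate kinase, averaged 3.84 ± 0.743 TPM in fasted 12 h and 41.2 ± 1.88 TPM in fasted 4 h libraries (log2FC -3.14, adjusted p = 2.7e-07). Nsdhl, a late step of the pathway, averaged 3.85 ± 0.707 TPM in fasted 12 h and 28.3 ± 2.44 TPM in fasted 4 h libraries (log2FC -2.60, adjusted p = 7.2e-07). Fdft1, the squalene synthase, averaged 13.6 ± 0.675 TPM in fasted 12 h and 82.4 ± 15.8 TPM in fasted 4 h libraries (log2FC -2.50, adjusted p = 1.6e-07). Sqle, the squalene epoxidase, was at 7.72, 6.1 and 7.89 TPM in fasted 12 h, against 24.6 and 34.4 TPM in fasted 4 h libraries (log2FC -1.88, adjusted p = 6.4e-06). It had 184 and 177 TPM in fed 12 h and 114, 115 and 129 TPM in fed 4 h libraries, so it was already low at 4 h of fasting.

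Hmgcs1, the cytosolic synthase that makes the substrate of HMG-CoA reductase, was an exception. It was at 33, 31.1 and 33.4 TPM in fasted 12 h, against 25.2 and 26.3 TPM in fasted 4 h libraries, while fed libraries held 608 and 601 TPM in fed 12 h and 126, 154 and 159 TPM in fed 4 h libraries. Both fasted groups were low, and the small difference between them (log2FC 0.32, adjusted p = 0.021) turned with centred libraries (-0.13, adjusted p = 0.23) and with a length trend removed (-0.04, adjusted p = 0.75), and was lost after quantile normalization (0.06, adjusted p = 0.59) and with array weights (0.31, adjusted p = 0.17). It was also lost without fasted 12 h library 3 (0.30, adjusted p = 0.051), without fasted 4 h library 1 (0.29, adjusted p = 0.063) and with the replicate number as a block (0.28, adjusted p = 0.055). Promoter windows of 250 bases before to 50 bases after each gene's start were read from RefSeq (GRCm38.p6) and searched on both strands for the sterol regulatory element to which SREBP factors bind, spelled TCACNCCAC. It was found in 408 of 32851 windows (1.2%), in 1 of the 17 cholesterol genes with a window, Hmgcs1, and in none of 10 genes of sterol sensing, uptake and efflux. Some genes have more than 1 window. Shares of windows and counts of genes, here and for the elements below, are therefore unlike measures. The Hmgcs1 match is shown as the only one among these cholesterol genes, and a link to the level of Hmgcs1 was not tested. The match lies at chr13:119690204-119690232 on the plus strand, with the element in capitals.
Hmgcs1: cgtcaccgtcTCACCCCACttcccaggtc

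Genes of sterol sensing and uptake mostly fell. Insig1 and Insig2 both encode ER proteins that hold back SREBP and moved in opposite directions. Insig1 was at 10.7, 14.2 and 9.96 TPM in fasted 12 h, against 30.9 and 25.8 TPM in fasted 4 h libraries (log2FC -1.23, adjusted p = 5.7e-05), while Insig2 was at 816, 825 and 879.8 TPM in fasted 12 h, against 199.8 and 145 TPM in fasted 4 h libraries (log2FC 2.30, adjusted p = 2.7e-07). The cholesterol carrier Stard4 averaged 3.76 ± 1.32 TPM in fasted 12 h and 14 ± 3.29 TPM in fasted 4 h libraries (log2FC -1.68, adjusted p = 0.00041). The cholesterol exporter Abca1 averaged 29.9 ± 1.89 TPM in fasted 12 h and 2.58 ± 0.427 TPM in fasted 4 h libraries (log2FC 3.11, adjusted p = 2.2e-07). Of the 16 genes of this list 9 fell and 4 rose. More bile acid genes rose than fell, as over all genes. Cyp7a1, the rate-limiting enzyme of bile acid synthesis, was at 169, 181 and 206 TPM in fasted 12 h, against 6.09 and 6.83 TPM in fasted 4 h libraries (log2FC 4.64, SE 0.12, adjusted p = 4.3e-09). Fed libraries held 103 and 96.5 TPM in fed 12 h and 25.4, 28.2 and 24.9 TPM in fed 4 h libraries, so fasted 4 h was the lowest of the 4 groups and fasted 12 h the highest. The bile acid and organic anion carriers Slco1a4 (log2FC 4.08, adjusted p = 2.3e-09) and Slco1b2 (log2FC 3.48, adjusted p = 2.5e-09) rose, as did Abcb4, which exports phosphatidylcholine into bile (log2FC 3.02, adjusted p = 5.7e-08). For Slco1b2 the fed difference was of similar size (3.35). Of 23 bile acid genes 13 rose and 5 fell, against 46.7% of all genes higher and 23.0% lower. With centred libraries 13 rose and 9 fell. In fed libraries 14 rose and 4 fell, and the interaction was called higher for 9 and lower for 5.

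**Figure D3:**
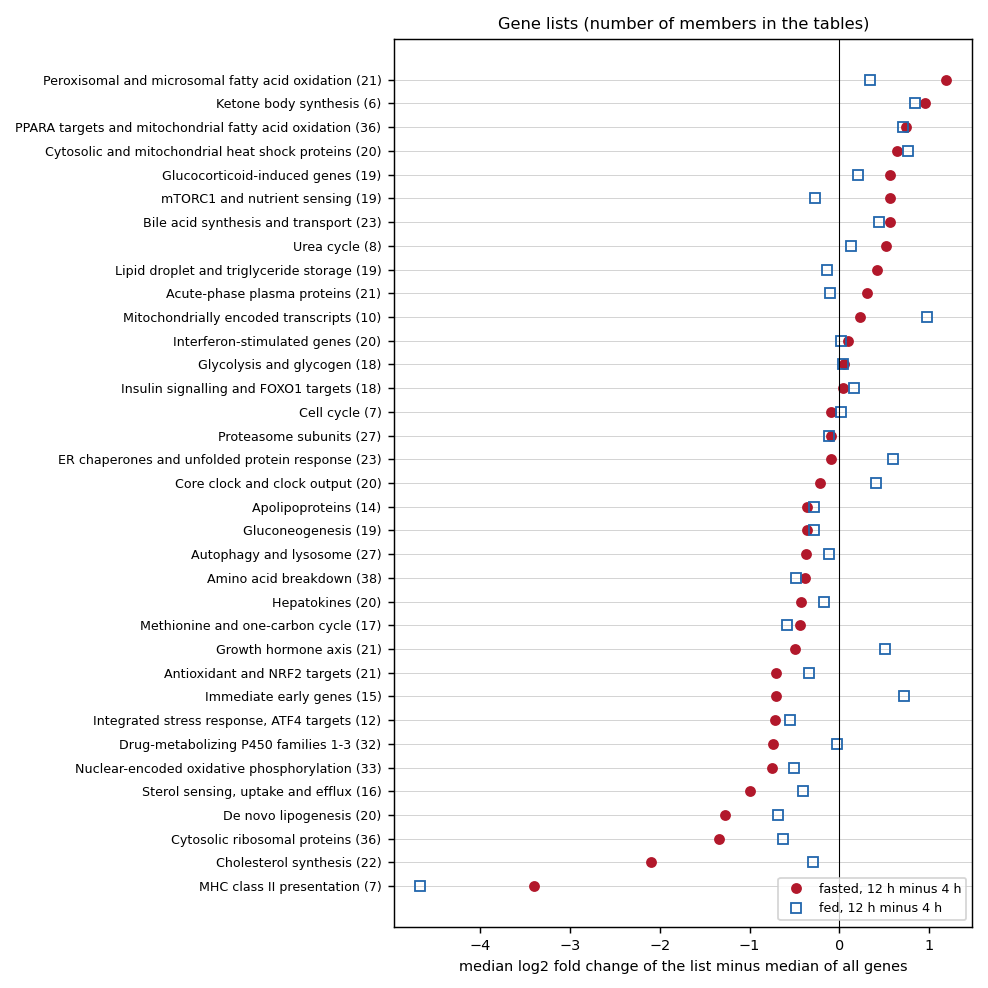
Median log2 fold change of each gene list minus the median of all genes (horizontal axis) for 12 h minus 4 h in fasted (filled circles) and fed libraries (open squares), with the number of listed genes in the tables in parentheses. Fatty acid oxidation lists lie to the right, and cholesterol synthesis lies at -2.10 in fasted and -0.29 in fed libraries.

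Of 8 urea cycle genes 6 rose and 2 fell. Cps1, the carbamoyl phosphate synthetase that starts the cycle, was at 2875, 2829 and 3026 TPM in fasted 12 h, against 437 and 457 TPM in fasted 4 h libraries (log2FC 2.70, SE 0.06, adjusted p = 1.8e-09). The fasted 4 h libraries were the lowest of all, since fed libraries held 1586 and 1599.7 TPM in fed 12 h and 1005, 1134 and 1089.7 TPM in fed 4 h libraries. Arg1, the liver arginase, averaged 2756 ± 61.2 TPM in fasted 12 h and 989 ± 25.4 TPM in fasted 4 h libraries (log2FC 1.48, adjusted p = 5.5e-09). Slc25a15, the mitochondrial ornithine carrier, averaged 313 ± 10.4 TPM in fasted 12 h and 79.8 ± 3.44 TPM in fasted 4 h libraries (log2FC 1.96, adjusted p = 5e-08). Nags, whose product activates Cps1, averaged 52.3 ± 5.96 TPM in fasted 12 h and 123 ± 21.5 TPM in fasted 4 h libraries (log2FC -1.21, adjusted p = 2.4e-05) and fell. Among 38 genes of amino acid breakdown 16 rose, 14 fell and 8 did not pass, and with centred libraries 13 rose and 20 fell. Tdo2, which opens the tryptophan ring, was at 3177, 3166 and 3258 TPM in fasted 12 h, against 211 and 254 TPM in fasted 4 h libraries (log2FC 3.78, SE 0.09, adjusted p = 3e-09). Aass, the first enzyme of lysine breakdown, averaged 459.8 ± 17.9 TPM in fasted 12 h and 65.1 ± 6.19 TPM in fasted 4 h libraries (log2FC 2.80, adjusted p = 1.6e-08). Haao, a later enzyme of tryptophan breakdown, averaged 140.4 ± 9.73 TPM in fasted 12 h and 942 ± 0.325 TPM in fasted 4 h libraries (log2FC -2.74, adjusted p = 2.2e-09). Tat, a tyrosine aminotransferase induced by glucocorticoids, was at 909, 892 and 953 TPM in fasted 12 h, against 587 and 589 TPM in fasted 4 h libraries (log2FC 0.64, adjusted p = 2.5e-06), below the fed levels of 1271 and 1262 TPM at 12 h and 1589.5, 1714 and 1662 TPM at 4 h. Sds, a serine dehydratase, averaged 205 ± 25.5 TPM in fasted 12 h and 371 ± 95.4 TPM in fasted 4 h libraries (log2FC -0.84, adjusted p = 0.00067). In the methionine and one-carbon cycle 7 of 17 genes rose and 8 fell, and 5 rose and 10 fell with centred libraries. Mat1a, which makes the methyl donor S-adenosylmethionine, averaged 8996 ± 224 TPM in fasted 12 h and 2100.1 ± 138 TPM in fasted 4 h libraries (log2FC 2.10, adjusted p = 5.5e-09) and the betaine methyltransferase Bhmt averaged 6193 ± 207 TPM in fasted 12 h and 1369.7 ± 64 TPM in fasted 4 h libraries (log2FC 2.18, adjusted p = 2.1e-09). The methyl-consuming enzymes Gnmt and Gamt fell by 1.99 and 2.59 on the log2 scale (adjusted p = 1.8e-08 and 5.5e-08).

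Of 19 glucocorticoid-induced genes 13 rose and 2 fell, and 8 rose and 2 fell with centred libraries. Fkbp5, a chaperone of the glucocorticoid receptor and one of its most responsive targets, was at 45.3, 48.2 and 64.6 TPM in fasted 12 h, against 7.47 and 7.47 TPM in fasted 4 h libraries (log2FC 2.65, SE 0.16, adjusted p = 8.9e-07). Fed libraries held 28.3 and 31.9 TPM in fed 12 h and 16.8, 16 and 16.7 TPM in fed 4 h libraries. The cell cycle inhibitor Cdkn1a averaged 66.9 ± 3.88 TPM in fasted 12 h and 7.02 ± 0.67 TPM in fasted 4 h libraries (log2FC 3.08, adjusted p = 9.5e-08), the transcription factor Zbtb16 averaged 9.23 ± 0.83 TPM in fasted 12 h and 0.519 ± 0.427 TPM in fasted 4 h libraries (log2FC 2.78, adjusted p = 3.5e-06) and the arrestin relative Arrdc3 averaged 83.9 ± 2.13 TPM in fasted 12 h and 8.72 ± 2.12 TPM in fasted 4 h libraries (log2FC 3.14, adjusted p = 3.3e-07). Serpina6, which encodes the corticosteroid carrier of plasma, was among the strongest falls, at 27.2, 27.5 and 32.2 TPM in fasted 12 h, against 583 and 691 TPM in fasted 4 h libraries (log2FC -4.41, SE 0.09, adjusted p = 1.9e-09). Fed libraries stood far above the fasted 12 h libraries at both times, with 330.4 and 316 TPM in fed 12 h and 536, 542 and 548 TPM in fed 4 h libraries.

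Of 21 genes of the growth hormone axis 8 rose, 5 fell and 8 did not pass, shares not far from the 46.7% and 23.0% of all genes. With centred libraries 8 rose and 10 fell. In fed libraries 12 rose and 2 fell. Ghr, the growth hormone receptor, was at 227, 182 and 229 TPM in fasted 12 h, against 303 and 407 TPM in fasted 4 h libraries (log2FC -0.73, adjusted p = 0.0009). Fed libraries held 764 and 695 TPM in fed 12 h and 458, 446 and 455 TPM in fed 4 h libraries. Igf1, the main growth hormone target of the liver, was at 311, 351 and 335 TPM in fasted 12 h, against 375 and 311 TPM in fasted 4 h libraries, and these overlapping groups did not pass (log2FC -0.04, SE 0.10, adjusted p = 0.72). Its sign depended on scaling, at -0.49 with centred libraries (adjusted p = 0.0025), 0.17 after quantile normalization (adjusted p = 0.12) and 0.02 with a length trend removed (adjusted p = 0.84). Igfals, the serum partner of IGF1, averaged 55.5 ± 3.27 TPM in fasted 12 h and 235 ± 19.3 TPM in fasted 4 h libraries (log2FC -2.06, adjusted p = 4.4e-08). The feedback inhibitor Cish averaged 7.86 ± 0.994 TPM in fasted 12 h and 2.24 ± 0.336 TPM in fasted 4 h libraries (log2FC 1.45, adjusted p = 4.4e-05), a rise that was lost after quantile normalization (0.29, adjusted p = 0.16). Its relative Socs2 was at 62.2, 87.5 and 73.9 TPM in fasted 12 h, against 14.5 and 3.23 TPM in fasted 4 h libraries (log2FC 3.21, adjusted p = 0.00026). Onecut1, a liver transcription factor, was at 9.99, 9.72 and 13.2 TPM in fasted 12 h, against 0.086 and 0.348 TPM in fasted 4 h libraries (log2FC 3.29, adjusted p = 8.3e-07). Mup21, of the major urinary protein family, averaged 16.2 ± 2.96 TPM in fasted 12 h and 1.37 ± 0.668 TPM in fasted 4 h libraries (log2FC 2.88, adjusted p = 5e-05).

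Of 20 clock genes 7 rose, 5 fell and 8 did not pass, shares not far from the 46.7% and 23.0% of all genes. In fed libraries 8 rose and 5 fell. Clock, one of the core activators, was at 12.5, 16.7 and 19.3 TPM in fasted 12 h, against 0.249 and 0 TPM in fasted 4 h libraries (log2FC 3.92, adjusted p = 1.1e-06). Its partner Arntl (BMAL1) was at 17.8, 16.9 and 15.6 TPM in fasted 12 h, against 2.56 and 4.79 TPM in fasted 4 h libraries (log2FC 1.97, SE 0.21, adjusted p = 3e-05). Fed libraries held 31.3 and 27.5 TPM in fed 12 h and 9.98, 10.2 and 11.3 TPM in fed 4 h libraries. Rora, a nuclear receptor that drives Arntl, averaged 38.4 ± 0.931 TPM in fasted 12 h and 4.08 ± 1.45 TPM in fasted 4 h libraries (log2FC 2.98, adjusted p = 1.4e-06). Nr1d2, one of the REV-ERB repressors of Arntl, averaged 13.8 ± 1.28 TPM in fasted 12 h and 1.72 ± 0.0903 TPM in fasted 4 h libraries (log2FC 2.44, adjusted p = 3.3e-05). The other repressor, Nr1d1, was at 31.5, 25.6 and 35.2 TPM in fasted 12 h, against 69.7 and 66.1 TPM in fasted 4 h libraries (log2FC -1.13, adjusted p = 0.00011). Fed libraries held 19.3 and 16.1 TPM in fed 12 h and 64.5, 72.2 and 65.9 TPM in fed 4 h libraries. Dbp, a transcription factor of clock output, was at 10.5, 6.38 and 2.83 TPM in fasted 12 h, against 30.9 and 38.4 TPM in fasted 4 h libraries (log2FC -2.37, adjusted p = 0.00049). Fed libraries held 0.037 and 0.44 TPM in fed 12 h and 29.1, 26.1 and 30.3 TPM in fed 4 h libraries, so the fall with time was smaller in fasted libraries (interaction 2.22, adjusted p = 0.015). That interaction was lost after quantile normalization (1.25, adjusted p = 0.23), with array weights (2.26, adjusted p = 0.063) and without fed 12 h library 1 (1.99, adjusted p = 0.066).

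The element through which ROR activators and REV-ERB repressors act on Arntl, spelled TAGGTCA and searched on both strands of the same RefSeq windows, occurred in 856 of 32851 windows (2.6%) and in 2 of the 16 clock genes with a window. These are shown because ROR and REV-ERB genes were themselves among those that differed, and a link of the element to gene levels was not tested. In Arntl the element lies 31 to 37 bases after the gene start of its window, and another Arntl window held no match. The Arntl match lies at chr7:113207531-113207557 on the plus strand, and the match of Nfil3, a clock output repressor, lies at chr13:52981035-52981061 for a gene on the minus strand, both written along the gene with the element in capitals (its reverse complement in Nfil3).
Arntl: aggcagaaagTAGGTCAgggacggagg
Nfil3: cgctcggaacTGACCTActaacacaca

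The ER stress element, through which ATF6 and XBP1 raise these genes when unfolded protein accumulates, is CCAAT and CCACG set 9 bases apart. It occurred on either strand in 39 of 32851 RefSeq windows (0.12%) and in 8 of the 20 listed ER genes with a window, once in each except Hsp90b1, which held 2 matches. They are printed along the gene with the element in capitals, as its reverse complement where it begins with CGTGG, as the sequences of the ER genes whose levels follow.
Hspa5, chr2:34772015-34772053, gene on the plus strand: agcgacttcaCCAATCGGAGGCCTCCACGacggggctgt
Hsp90b1, chr10:86705523-86705561, gene on the minus strand: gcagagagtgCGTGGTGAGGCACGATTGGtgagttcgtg
Hsp90b1, chr10:86705628-86705666, gene on the minus strand: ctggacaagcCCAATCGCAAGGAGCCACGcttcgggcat
Dnajc3, chr14:118937817-118937855, gene on the plus strand: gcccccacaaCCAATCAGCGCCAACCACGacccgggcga
Canx, chr11:50325790-50325828, gene on the minus strand: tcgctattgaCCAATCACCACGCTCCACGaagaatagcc
Calr, chr8:84847065-84847103, gene on the minus strand: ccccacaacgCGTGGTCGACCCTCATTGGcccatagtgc
Pdia6, chr12:17266481-17266519, gene on the plus strand: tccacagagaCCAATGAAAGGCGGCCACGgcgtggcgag
Creld2, chr15:88819510-88819548, gene on the plus strand: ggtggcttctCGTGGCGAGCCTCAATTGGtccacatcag
Syvn1, chr19:6046522-6046560, gene on the plus strand: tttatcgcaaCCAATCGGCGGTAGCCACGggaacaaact

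Hspa5 (BiP), the main chaperone of the ER, was at 747, 765 and 793 TPM in fasted 12 h, against 227 and 256 TPM in fasted 4 h libraries (log2FC 1.67, SE 0.07, adjusted p = 5.7e-08). Fed libraries held 1898 and 1876 TPM in fed 12 h and 781, 858 and 865 TPM in fed 4 h libraries, so fasted 4 h was the lowest and fed 12 h the highest group. Hsp90b1, the ER member of the HSP90 family, was at 605, 629 and 653 TPM in fasted 12 h, against 64.1 and 95.3 TPM in fasted 4 h libraries (log2FC 2.99, adjusted p = 1.7e-07). Dnajc3, a cochaperone that inhibits the kinase PERK, averaged 128 ± 1.27 TPM in fasted 12 h and 23.2 ± 4.24 TPM in fasted 4 h libraries (log2FC 2.42, adjusted p = 5.2e-07), with the same difference of 2.42 in fed libraries. Canx, the membrane-bound lectin chaperone calnexin, averaged 204 ± 9.72 TPM in fasted 12 h and 60.4 ± 9.21 TPM in fasted 4 h libraries (log2FC 1.74, adjusted p = 8.2e-07). Its soluble relative calreticulin, Calr, was at 523, 559 and 557 TPM in fasted 12 h, against 565 and 643 TPM in fasted 4 h libraries and did not pass (log2FC -0.14, adjusted p = 0.14), was called lower with centred libraries (-0.59, adjusted p = 0.00012) and without fasted 4 h library 1 (-0.24, adjusted p = 0.034), and turned to 0.10 (adjusted p = 0.26) with a length trend removed. Pdia6, a disulfide isomerase, averaged 166 ± 6.85 TPM in fasted 12 h and 213 ± 7.94 TPM in fasted 4 h libraries (log2FC -0.35, adjusted p = 0.0005) and was not called with a length trend removed (-0.07, adjusted p = 0.29). Creld2, an ER stress-induced secreted protein, averaged 48.5 ± 6.01 TPM in fasted 12 h and 83.5 ± 10.7 TPM in fasted 4 h libraries (log2FC -0.77, adjusted p = 0.0004). Syvn1, a ubiquitin ligase of ER-associated degradation, was at 53.4, 53.6 and 60.8 TPM in fasted 12 h, against 24.9 and 56.9 TPM in fasted 4 h libraries and did not pass (log2FC 0.55, adjusted p = 0.09). It turned to -0.03 (adjusted p = 0.84) without fasted 4 h library 1 and was called (1.14, adjusted p = 2.9e-05) without library 2. Sdf2l1, a component of the BiP chaperone cycle, fell to 17.4, 14.9 and 16.9 TPM in fasted 12 h libraries, against 137 and 126 TPM in fasted 4 h libraries (log2FC -2.93, adjusted p = 3.2e-08). In all 11 of 23 ER genes rose and 7 fell, shares near the 46.7% and 23.0% of all genes, and 8 rose and 11 fell with centred libraries.

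Of 20 cytosolic and mitochondrial heat shock genes 17 rose and 2 fell, with a median 0.64 over the general one, and 11 rose and 3 fell with centred libraries. The mitochondrial chaperonin Hspd1 averaged 255 ± 7.81 TPM in fasted 12 h and 40.4 ± 15 TPM in fasted 4 h libraries (log2FC 2.68, adjusted p = 1.4e-06). The HSP90-linked protein Cacybp averaged 28.6 ± 3.67 TPM in fasted 12 h and 1.1 ± 0.748 TPM in fasted 4 h libraries (log2FC 3.86, adjusted p = 6.2e-07). Fed libraries moved alike, with 14 that rose and 2 that fell. Immediate early genes, which respond to growth signals and to handling of cells, gave 5 that rose and 6 that fell among 15 in fasted libraries, against 10 and 2 in fed libraries. The interaction was called lower for 10 of them. Ier2 was at 98.4, 92.9 and 107 TPM in fasted 12 h, against 275 and 323 TPM in fasted 4 h libraries (log2FC -1.58, adjusted p = 5.6e-07). Fed libraries held 355 and 347 TPM in fed 12 h and 168, 155 and 155 TPM in fed 4 h libraries. Junb, a subunit of the AP-1 transcription factor, was at 63.4, 62.3 and 68 TPM in fasted 12 h, against 293 and 364 TPM in fasted 4 h libraries (log2FC -2.32, adjusted p = 6.4e-08). Of 12 ATF4 targets of the integrated stress response 3 rose and 4 fell, and 0 rose and 7 fell with centred libraries.

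More detoxification genes fell than rose. Of 32 P450 genes of families 1 to 3, 16 fell and 10 rose. Cyp1a2, which oxidizes aromatic amines and caffeine, was at 124, 121 and 129.6 TPM in fasted 12 h, against 1008 and 1025 TPM in fasted 4 h libraries (log2FC -3.02, SE 0.05, adjusted p = 3.6e-10). Cyp2c70, which makes muricholic bile acids in mice, averaged 117 ± 3.05 TPM in fasted 12 h and 724 ± 78.3 TPM in fasted 4 h libraries (log2FC -2.62, adjusted p = 3.5e-09). Cyp2a5, a coumarin hydroxylase, averaged 90.3 ± 16.6 TPM in fasted 12 h and 445 ± 67 TPM in fasted 4 h libraries (log2FC -2.30, adjusted p = 1e-06). Cyp3a25, a steroid-oxidizing member, rose to 1274 ± 87.2 TPM in fasted 12 h libraries, against 165 ± 9.14 TPM in fasted 4 h libraries (log2FC 2.94, adjusted p = 3e-09). Among 21 antioxidant and NRF2 target genes 10 fell and 6 rose, and 4 rose and 14 fell with centred libraries. The glutathione transferase Gstm1 averaged 612 ± 38.5 TPM in fasted 12 h and 3123 ± 101 TPM in fasted 4 h libraries (log2FC -2.35, adjusted p = 2.5e-09). Gstm3 (log2FC -3.61, adjusted p = 1e-06) and Gsta3 (log2FC -2.51, adjusted p = 1.3e-07), of the same enzyme class, fell too. Members of the P450 and glutathione transferase families resemble each other closely, so their values depend on how reads were divided among them. Markers of pericentral hepatocytes, the cells around the central vein, gave 7 that fell and 1 that rose among 9, as with Gulo, of vitamin C synthesis, at 179 ± 3.07 TPM in fasted 12 h and 652 ± 33.4 TPM in fasted 4 h libraries (log2FC -1.85, adjusted p = 1.5e-08). Markers of periportal hepatocytes gave 6 that rose and 4 that fell among 10. The strongest falls of all named genes were in Car3 and A1bg. Car3 (chr3:14863538-14872381), a carbonic anhydrase of hepatocytes and muscle, was at 23.1, 25.1 and 21.6 TPM in fasted 12 h, against 1585 and 1854 TPM in fasted 4 h libraries (log2FC -6.15, SE 0.09, adjusted p = 3.6e-10), with 3963 and 3702 TPM in fed 12 h and 3127, 3461 and 3452 TPM in fed 4 h libraries. A1bg (chr15:60917589-60921270), a plasma glycoprotein, was at 35.3, 36.4 and 43.8 TPM in fasted 12 h, against 1691 and 1847 TPM in fasted 4 h libraries (log2FC -5.49, SE 0.09, adjusted p = 3.6e-10), with 951 and 931 TPM in fed 12 h and 1354, 1445 and 1369.9 TPM in fed 4 h libraries. In both genes the fasted 12 h libraries lay far below all other libraries.

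Several of the strongest rises were in genes of RNA processing. Clk1, a kinase of SR splicing factors, was at 116, 108 and 118 TPM in fasted 12 h, against 1.69 and 1.97 TPM in fasted 4 h libraries (log2FC 5.34, SE 0.40, adjusted p = 2.9e-06). Fed libraries held 42.9 and 40.5 TPM in fed 12 h and 2.36, 5.09 and 10.6 TPM in fed 4 h libraries. Srsf1, an SR splicing factor, was at 107, 78.1 and 113 TPM in fasted 12 h, against 3.73 and 1.69 TPM in fasted 4 h libraries (log2FC 4.79, adjusted p = 5.6e-07). Rbm39, another splicing factor, was at 241, 329 and 364 TPM in fasted 12 h, against 25.9 and 3.81 TPM in fasted 4 h libraries (log2FC 4.76, adjusted p = 5.1e-05). Pnn, a protein of nuclear speckles, was at 30.5, 34.5 and 32.3 TPM in fasted 12 h, against 0.63 and 0 TPM in fasted 4 h libraries (log2FC 4.71, adjusted p = 2.5e-07). Paxbp1 (log2FC 4.78, adjusted p = 3.8e-08), Wsb1 (log2FC 4.81, adjusted p = 1.3e-05) and Zc3h7a (log2FC 5.09, adjusted p = 2.9e-07) completed the 10 strongest rises, and Wsb1 encodes a subunit of a ubiquitin ligase. All 7 of these genes were also higher at 12 h than at 4 h in fed libraries, by 1.82 (Srsf1) to 2.80 (Zc3h7a) on the log2 scale. The interaction of Rbm39 (2.34, adjusted p = 0.049) and that of Wsb1 (2.41, adjusted p = 0.021) were lost under several settings, such as the replicate number as a block (adjusted p = 0.13 and 0.054), and with 1 library left out they ranged from 1.10 to 3.58 for Rbm39 and from 1.39 to 3.43 for Wsb1. No list of RNA processing genes was tested. Among the 10 strongest falls were 6 gene models or pseudogenes, and RefSeq lists Gm10175 and Gm12184 as pseudogenes. Gm10719, Gm10721, Gm10718, Gm10175 and Gm12184 varied widely within groups, as with Gm10719 at 7.09, 1.38 and 123 TPM in fasted 12 h, against 396 and 685 TPM in fasted 4 h libraries. Their log2 fold changes were -5.29, -4.66, -4.28, -4.50 and -4.21, and each of these calls was lost with array weights (adjusted p = 0.13, 0.17, 0.14, 0.19 and 0.12 in that order). Without fasted 4 h library 2 the calls of Gm10719 (-4.89, adjusted p = 0.074), Gm10721 (-4.12, adjusted p = 0.09) and Gm12184 (-3.88, adjusted p = 0.061) were lost, and without library 1 that of Gm10718 (-4.04, adjusted p = 0.068). Gm10721 was -3.10 without fasted 12 h library 2 and Gm10718 was -2.84 without fasted 12 h library 1. The pseudogene Rpl10a-ps1 was listed at 0 in all 3 fasted 12 h libraries and at 28.3 and 32.4 TPM in fasted 4 h libraries.

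Of 36 cytosolic ribosomal protein genes 23 fell and 2 rose, with a median -1.34 relative to all genes, and in fed libraries 19 fell and 2 rose. Rpl35, of the large subunit, was at 28.5, 28.3 and 20.6 TPM in fasted 12 h, against 115 and 91 TPM in fasted 4 h libraries (log2FC -1.96, adjusted p = 6.8e-06). Of 33 nuclear genes of oxidative phosphorylation 19 fell and 5 rose, and in fed libraries 18 fell and 3 rose. Of those that rose in fasted libraries, Ndufs1, a complex I subunit, averaged 109.6 ± 3.93 TPM in fasted 12 h and 12.6 ± 1.33 TPM in fasted 4 h libraries (log2FC 3.03, adjusted p = 2e-08). Cytochrome c (Cycs) averaged 262 ± 28.2 TPM in fasted 12 h and 57.8 ± 7.76 TPM in fasted 4 h libraries (log2FC 2.16, adjusted p = 3.9e-07). Over all genes the difference grew with transcript length. With that trend removed, 21 ribosomal genes fell and 4 rose, and 14 oxidative phosphorylation genes fell and 7 rose. Of 10 mitochondrially encoded genes 7 rose and none fell, and 4 rose and 2 fell with centred libraries. mt-Cytb, of complex III, averaged 8865 ± 232 TPM in fasted 12 h and 1886 ± 98 TPM in fasted 4 h libraries (log2FC 2.23, adjusted p = 5.7e-10). Of 27 proteasome subunit genes 15 rose and 4 fell, with the ATPase subunit gene Psmc6 at 68.9 ± 2.89 TPM in fasted 12 h and 5.43 ± 1.88 TPM in fasted 4 h libraries (log2FC 3.47, adjusted p = 3.9e-07), but 11 rose and 12 fell with centred libraries.

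Markers of other cell types differed between the fasted groups and did not all go one way. Of 14 Kupffer cell and macrophage markers 12 fell and 2 rose. C1qb, a complement gene of macrophages, was at 113, 109 and 109.6 TPM in fasted 12 h, against 611 and 555 TPM in fasted 4 h libraries (log2FC -2.39, adjusted p = 2.9e-08). Fed libraries held 14.4 and 13.1 TPM in fed 12 h and 349.7, 322 and 306 TPM in fed 4 h libraries. Folr2, a folate receptor of resident macrophages, averaged 9.58 ± 3.7 TPM in fasted 12 h and 96.5 ± 6.68 TPM in fasted 4 h libraries (log2FC -3.27, adjusted p = 1.2e-05). Of 7 MHC class II genes 6 fell, as with H2-Ab1 at 42.3, 34.3 and 34.8 TPM in fasted 12 h, against 453 and 550.4 TPM in fasted 4 h libraries (log2FC -3.72, adjusted p = 1.2e-07). All 5 erythroid markers fell. The haemoglobin gene Hba-a1 was at 141, 135 and 125 TPM in fasted 12 h, against 1026 and 639 TPM in fasted 4 h libraries (log2FC -2.59, adjusted p = 1e-05). Fed libraries held 4.39 and 2.12 TPM in fed 12 h and 1744, 1487 and 1599 TPM in fed 4 h libraries. Of 15 sinusoidal endothelial markers 6 fell and 4 rose. Egfl7, secreted by endothelium, averaged 52.1 ± 4.3 TPM in fasted 12 h and 164 ± 9.93 TPM in fasted 4 h libraries (log2FC -1.64, adjusted p = 7.9e-06), whereas the scavenger receptor Mrc1 was at 35.2, 35.8 and 42.7 TPM in fasted 12 h, against 8.5 and 12 TPM in fasted 4 h libraries (log2FC 1.80, adjusted p = 0.00011). Of 5 stellate cell and fibroblast markers 4 rose and 1 fell. The matrix proteoglycan gene Dcn was at 239.7, 225 and 249.5 TPM in fasted 12 h, against 70.4 and 72.7 TPM in fasted 4 h libraries (log2FC 1.72, adjusted p = 7.3e-07). Fed libraries held 16.2 and 15.6 TPM in fed 12 h and 60, 69.3 and 74 TPM in fed 4 h libraries. Summed over its 5 markers this list stood at 545 to 595 TPM in fasted 12 h, 332 to 402 TPM in fasted 4 h, 40.5 to 41 TPM in fed 12 h and 266 to 288 TPM in fed 4 h libraries. All 4 T and NK cell markers, 3 of 4 B cell markers and both monocyte markers in the tables fell. Most markers of these cells were also lower at 12 h in fed libraries, among them all 14 of macrophages and all 15 of endothelium, and the summed macrophage, endothelial, stellate and erythroid markers were lowest in the fed 12 h libraries.

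**Figure D4:**
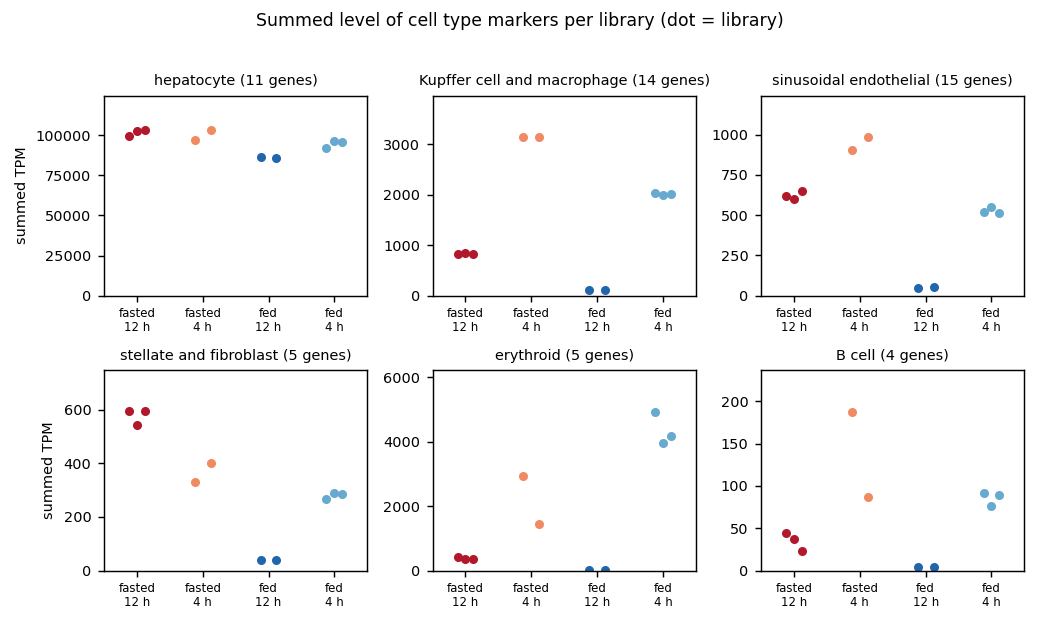
Summed TPM of the markers of 6 cell types (vertical axes, each from 0) in each library (dots) by group. Macrophage markers were at 827 to 839 TPM in fasted 12 h and 3139 to 3149 TPM in fasted 4 h libraries, while stellate and fibroblast markers were highest in fasted 12 h libraries and all non-hepatocyte sums were lowest in fed 12 h libraries.

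The fed libraries of the same times give a reference for what differed without a fast. Between fed 12 h and fed 4 h libraries 5301 genes were called (59.1%), 2988 higher (33.3%) and 2313 lower (25.8%), with a median of 0.09. The fasted and fed differences, which share no library, correlated across 8966 genes at a Pearson r of 0.74 and a Spearman rho of 0.77. Genes are not independent replicates, and libraries of 1 time may share a day of isolation. Of the 4187 genes that rose in fasted libraries, 2662 also rose in fed libraries (63.6% of the fasted and 89.1% of the fed rises). Of the 2062 that fell, 1411 also fell in fed libraries (68.4% of the fasted and 61% of the fed falls). The interaction was called for 2750 genes (30.7%), 2084 with a higher (23.2%) and 666 with a lower fasted difference (7.43%). Among genes that rose in fasted libraries, 1561 had an interaction called in the same direction, 63 in the opposite direction and 2563 none. Among those that fell, 519 had one in the same direction, 217 in the opposite direction and 1326 none. Both sets were chosen by the fasted difference. That difference is part of the interaction, so more calls in its direction follow partly from the choice. Cidec, Lepr and Apoa4 on the side of the rises, and Car3, Fdps and Serpina6 on the side of the falls, are genes whose fed difference was within 1.2 on the log2 scale while their fasted difference exceeded 4.4. With centred libraries the interaction was called higher for 1439 genes (16.0%) and lower for 975 (10.9%).

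**Figure D5:**
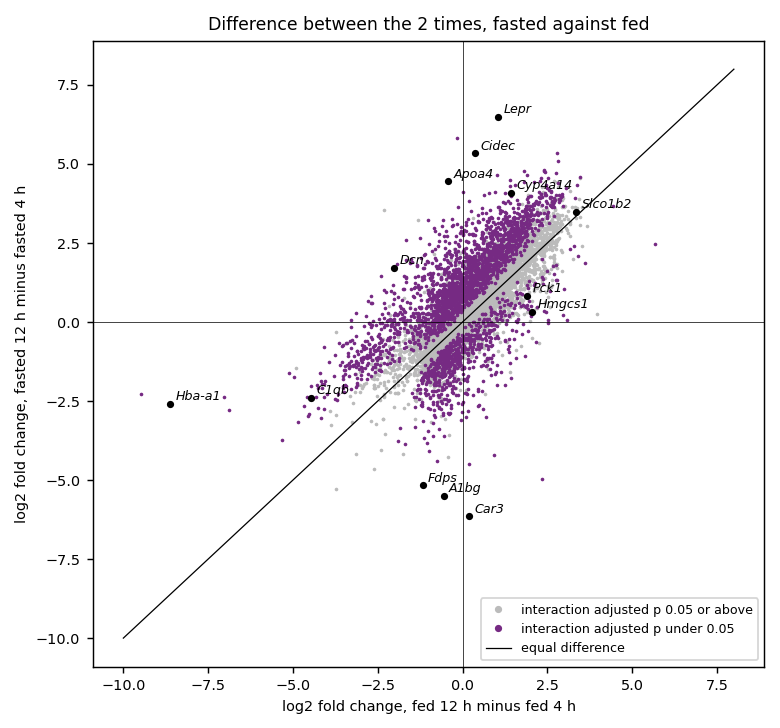
Log2 fold change of 12 h minus 4 h in fasted libraries (vertical axis) against that in fed libraries (horizontal axis), 1 point per gene, with purple points where the interaction passed at an adjusted p under 0.05 and a line of equal difference. Points scatter along the line (r = 0.74), and Lepr, Cidec and Apoa4 above and Car3, A1bg and Fdps below lie far from it, at fed differences between -1.18 (Fdps) and 1.06 (Lepr).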

How the data were processed

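Bulk RNA sequencing of mouse hepatocytes gave 10 libraries, 5 of them fasted. The values are TPM that the authors deposited as 1 table per library. Per the submitters' processing notes, kallisto 0.44.0 and GRCm38 were used. The unit was read from the values, which are not whole numbers and sum to 984189 to 992121 per library. The transcript annotation, the summing to genes and any filter on genes, like strand use, are not given in these sources, so overlapping and near-identical genes depend on how reads were divided.

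Groups were taken from the labels. Of 8980 genes listed, 14 whose symbols had been turned into dates were left out, which left 8966, all with a mean of at least 1 TPM. Values were taken as log2(TPM + 1), a scale that understates the change of low genes, and were fitted with limma 3.58.1 (R 4.3.3) over the 4 hepatocyte groups with a mean-variance trend, robust empirical Bayes moderation and 6 residual degrees of freedom. Contrasts were fasted 12 h minus fasted 4 h, fed 12 h minus fed 4 h, and the first of these minus the second, called the interaction. A call is a Benjamini-Hochberg adjusted p under 0.05. Named genes were the 10 highest and 10 lowest called genes whose fasted groups did not overlap and whose higher group averaged 10 TPM or more, up to 4 called members of each list with the largest difference, and 39 key genes, of which 35 were in the tables and 4 are not analysed here. Results of some genes are not reported here. Not every gene that this rule names is described. The genes of interest and the lists were chosen with earlier results of these data known. Alternatives were quantile normalization, centring of each library on its median, a pseudocount of 0.1, no filter, only genes averaging 10 TPM or more, no trend, moderation that was not robust, array weights, the replicate number as a block, the 5 fasted libraries alone, each library left out in turn, and, added after seeing the data, removal of a trend with transcript length (GENCODE M21, loess span 0.5, 8742 genes). The procedure was tested on simulated data that gave each gene the same spread in all libraries, so unequal spread between groups was not simulated. Figures were drawn from the tables with matplotlib 3.10.9.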

Additional observations from a re-analysis of the deposited data

Results flagged for a closer look

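The difference between 12 h and 4 h in fasted libraries was set against that in fed libraries by limma's interaction term, given here on the log2(TPM + 1) scale as the fasted difference minus the fed difference. It passed at an adjusted p under 0.05 for 2750 of 8966 genes (30.7%), and for 118 of the genes named in the text, 70 with a higher and 48 with a lower fasted difference. The named genes were chosen by their fasted difference, so their share is no measure of the table.

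Where the fasted difference was the higher one, the interaction was largest in Hba-a1 (6.02), Cgref1 (5.95), Lepr (5.43), Cidec (4.98), Apoa4 (4.88), Dcn (3.74), Mrc1 (3.15), Srsf1 (2.98), Cyp7a1 (2.75) and Slco1a4 (2.69). It was smaller in Cyp4a14 (2.66), Mat1a (2.59), Clk1 (2.56), Hsd17b13 (2.47), Ehhadh (2.46), Wsb1 (2.41), Tdo2 (2.39), Paxbp1 (2.38), Plin4 (2.37) and Rbm39 (2.34). Next came Zc3h7a (2.29), Dbp (2.22), Cps1 (2.13), C1qb (2.08), Gpt2 (2.00), Cyp4a10 (1.99), Lpin2 (1.96), Pnn (1.96), Cd36 (1.92) and Aass (1.89). Below these lay Bnip3 (1.88), Slc16a6 (1.84), Egfl7 (1.83), Fkbp5 (1.82), Cish (1.78), Bhmt (1.71), Slc37a4 (1.63), Arg1 (1.59), H2-Ab1 (1.59) and Elovl6 (1.58). Then followed Gys2 (1.56), Nr1d2 (1.48), Mup21 (1.47), Ndufs1 (1.41), Abca1 (1.40), Abcb4 (1.40), Wipi1 (1.39), Acadm (1.29), Cycs (1.22) and Cyp3a25 (1.21). After them came Cpt1a (1.12), Zbtb16 (1.11), Tat (1.03), Cp (1.00), Slc25a15 (1.00), Cacybp (0.99), Slc16a1 (0.98), Leprot (0.97), Psmc6 (0.94) and Abcd3 (0.93). The smallest in this direction were Hspd1 (0.88), Vnn1 (0.85), Cdkn1a (0.84), Apob (0.79), Insig2 (0.75), Nr1d1 (0.75), Igfbp1 (0.63), mt-Cytb (0.53), Hspa5 (0.49) and Plin2 (0.43). A higher fasted difference is not always a rise. Hba-a1, C1qb, H2-Ab1, Egfl7, Dbp and Nr1d1 fell with time in fasted libraries and fell more in fed libraries.

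Where the fasted difference was the lower one, the interaction was largest in size in Car3 (-6.34), Gm12184 (-5.13), A1bg (-4.93), Gm10175 (-4.69), Fdps (-3.98), Serpina6 (-3.67), Cyp2c70 (-3.10), Gstm3 (-2.73), Ier2 (-2.71) and Gdf15 (-2.62). Smaller sizes were found in Nsdhl (-2.58), Isg15 (-2.55), Stard4 (-2.50), Sqle (-2.47), Ppp1r3g (-2.46), Saa2 (-2.44), Sdf2l1 (-2.35), Enho (-2.29), Cyp1a2 (-2.22) and Junb (-2.12). Nearer to 0 were Gsta3 (-2.09), Mvk (-1.96), Fdft1 (-1.87), Haao (-1.76), Gamt (-1.72), Hmgcs1 (-1.72), Acss2 (-1.69), Gstm1 (-1.66), Scd1 (-1.65) and Gulo (-1.57). Nearer still were Igfals (-1.56), Angptl4 (-1.54), Thrsp (-1.53), Ghr (-1.41), Srebf1 (-1.29), Cyp2a5 (-1.23), Rpl35 (-1.12), Pck1 (-1.07), Pdia6 (-1.05) and Irs2 (-0.99). The smallest in this direction were Insig1 (-0.98), Irf7 (-0.95), Creld2 (-0.72), Gnmt (-0.69), Igf1 (-0.64), Ppara (-0.62), Khk (-0.61) and G6pc (-0.34). A lower fasted difference is likewise not always a fall, since genes such as Pck1 and G6pc rose in fasted libraries and rose more in fed libraries.

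Car3 at -6.34, A1bg at -4.93 and Cgref1 at 5.95 have a fed difference within 0.6 on the log2 scale, and Cyp7a1, Hspa5 and Cps1 have their lowest level in the fasted 4 h libraries. No group was large enough for a check of single libraries far from the others.

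Some of these interaction calls were lost under other settings, of which 19 or 20 were tried for each gene. With the number of settings that lost the call in parentheses, these were Irf7 (14), Cacybp (13), Ppara (13), Rbm39 (13), Gm12184 (12), Mup21 (12), Gm10175 (11), Slc16a6 (11), Hspd1 (10), Zbtb16 (9) and Psmc6 (8). Fewer settings lost it for Nr1d1 (7), Igfbp1 (6), Nr1d2 (5), G6pc (4), Wsb1 (4), Dbp (3), Wipi1 (3), Plin4 (2), Cdkn1a (1), Creld2 (1) and Plin2 (1). The interaction ranged over the settings from -1.33 to -0.56 for Irf7 (-0.56 without fasted 4 h library 2), from 0.36 to 1.69 for Cacybp and from 0.03 to 1.4 for Zbtb16.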

How the results depend on the processing

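The count of 6249 called genes between fasted 12 h and fasted 4 h libraries ranged from 5841 to 6360 when 1 library was left out, with 3931 to 4263 higher and 1893 to 2174 lower. The count fell further with array weights, to 4765 (3369 higher, 1396 lower), and to 5528 with the 5 fasted libraries alone. The split depended on scaling: 3106 higher and 3153 lower with centred libraries, 2873 and 3018 after quantile normalization. Among the 6222 genes averaging at least 10 TPM, 2623 were higher and 1711 lower at 12 h in fasted libraries. In fed libraries 1968 of these genes were higher and 1845 lower. The interaction count of 2750 was 1805 with array weights (1386 higher, 419 lower), against 1326 higher and 1054 lower after quantile normalization. It was 1603 (1199 higher, 404 lower) without fed 12 h library 2 and 3731 (2720 higher, 1011 lower) without fasted 4 h library 1. The cause was not tested.

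Signs turned as follows. For 12 h minus 4 h in fasted libraries, centring gave Angptl4 -0.35 and Hmgcs1 -0.13. Removing a length trend, an alternative chosen after seeing the data, gave Irs2 -0.42, Hmgcs1 -0.04, Igf1 0.02 and Calr 0.10, and quantile normalization gave Igf1 0.17. With 1 library left out, Angptl4 ranged from -0.05 to 0.25, Igf1 from -0.18 to 0.09 and Syvn1 from -0.03 to 1.14. For the interaction, quantile normalization gave Pdk4 -0.16, Rps6kb1 -0.10, Fasn -0.15, Onecut1 -0.43 and Rora -0.06, and centring gave Acat1 -0.07, Fasn -0.19, Slco1b2 -0.07, Rora -0.02, Dnajc3 -0.20 and Canx -0.09. Dnajc3 was also -0.001 with array weights and -0.21 with the length trend removed, and Fgf21 was -0.68 with a pseudocount of 0.1. With 1 library left out, the interaction ranged from -0.09 to 2.06 for Fgf21, -0.01 to 0.27 for Acat1, -0.18 to 0.23 for Fasn, -0.11 to 0.48 for Rora, -0.18 to 0.18 for Dnajc3, -0.04 to 0.26 for Canx, -0.13 to 1.03 for Syvn1 and -0.13 to 0.99 for Rps6kb1.

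Deviations of libraries with 1 number correlated at 0.158 and -0.107 between the fasted groups and at -0.121 to 0.205 over all group pairs. Not every pair exceeded 0.1, so the numbers were not taken as pairing. With the replicate number as a block, 4015 genes were higher and 1956 lower, the interaction was called for 1877 genes (1393 higher, 484 lower), and the interaction was -0.17 for Fasn and -0.12 for Dnajc3.

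Fasted 4 h rests on 2 libraries, and array weights gave them 0.226 each, against 1.017 to 1.78 for fasted 12 h libraries. Depth is unknown, so values near 0 have no limit. Low genes moved most, and log2(TPM + 1) understates their change.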

Other observations

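Other lists gave mixed counts between fasted 12 h and fasted 4 h libraries. Of 19 genes of mTORC1 and nutrient sensing 12 rose and 2 fell, and 10 rose and 4 fell with centred libraries. Rps6kb1, the S6 kinase downstream of mTORC1, was at 23.2, 24.1 and 16.9 TPM in fasted 12 h, against 0.819 and 2.94 TPM in fasted 4 h libraries (log2FC 3.05, adjusted p = 2.3e-05). Deptor, an mTOR inhibitor, was at 64.3, 62.1 and 68.9 TPM in fasted 12 h, against 12.4 and 6.83 TPM in fasted 4 h libraries (log2FC 2.69, adjusted p = 3.7e-06). Their differences with time in fed libraries were 2.62 and 1.83. Of 27 autophagy and lysosome genes 11 rose and 8 fell, against 46.7% of all genes higher and 23.0% lower. With centred libraries 11 rose and 12 fell. The members described here, Bnip3 and Wipi1, are among those that rose. Bnip3, a receptor for the removal of mitochondria, was at 508, 572 and 577 TPM in fasted 12 h, against 108 and 104 TPM in fasted 4 h libraries (log2FC 2.37, adjusted p = 4e-08). Wipi1, of early autophagosomes, averaged 16.9 ± 0.177 TPM in fasted 12 h and 4.14 ± 0.073 TPM in fasted 4 h libraries (log2FC 1.80, adjusted p = 0.00025). Bnip3 rose less in fed libraries (log2FC 0.49, adjusted p = 0.0012).

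Of 20 hepatokine genes 7 rose and 8 fell. Gdf15, a stress hormone that lowers food intake, was at 13.7, 14 and 14.3 TPM in fasted 12 h, against 65.6 and 82.2 TPM in fasted 4 h libraries (log2FC -2.31, adjusted p = 4e-07). Fed libraries held 70.8 and 79.8 TPM in fed 12 h and 56.9, 60.2 and 64.9 TPM in fed 4 h libraries. Enho, which encodes adropin, was at 6.39, 4.65 and 4.88 TPM in fasted 12 h, against 37.9 and 37.2 TPM in fasted 4 h libraries (log2FC -2.62, adjusted p = 1.5e-06). Fed libraries held 36.3 and 40.8 TPM in fed 12 h and 47.7, 57.8 and 41.7 TPM in fed 4 h libraries. For both genes fasted 12 h libraries stood below the other 7. Of 21 acute-phase genes 13 rose and 6 fell, with the copper carrier ceruloplasmin (Cp) at 870.0 ± 12.4 TPM in fasted 12 h and 137 ± 13.6 TPM in fasted 4 h libraries (log2FC 2.66, adjusted p = 1.2e-07) and the serum amyloid gene Saa2 at 3.39 ± 0.926 TPM in fasted 12 h and 31 ± 7.16 TPM in fasted 4 h libraries (log2FC -2.87, adjusted p = 6.1e-06). Of 20 interferon-stimulated genes 10 rose and 7 fell, against 46.7% of all genes higher and 23.0% lower. With centred libraries 7 rose and 9 fell. The members described here, Irf7 and Isg15, are among those that fell. The interferon regulatory factor Irf7 was at 39.6, 29.9 and 34.3 TPM in fasted 12 h, against 139 and 237 TPM in fasted 4 h libraries (log2FC -2.37, adjusted p = 1.3e-05). The ubiquitin-like Isg15 was at 0.25, 1.8 and 1.61 TPM in fasted 12 h, against 9.3 and 13.1 TPM in fasted 4 h libraries (log2FC -2.53, adjusted p = 0.00031). Among 7 measured cell cycle genes, 2 rose and 1 fell.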
